A study of Astyanax mexicanus with 12 samples.

Results

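The miRNA levels of Molino and Pachón embryos of *Astyanax mexicanus* were compared directly, in 3 Molino and 3 Pachón small RNA libraries out of the 12 libraries of the study, over all 683 mature miRNAs of the deposited count table. Molino and Pachón are eyeless, weakly pigmented cavefish populations, each named after the cave it inhabits, and they lie in different mountain ranges of northeastern Mexico. The remaining 6 libraries, 3 from river-dwelling surface fish and 3 from the Tinaja cave population, served to place each level of the pair. All libraries came from untreated wild-type whole embryos at 24 hours post fertilization (24 hpf). Neither the labels nor the methods say how the embryos of a morph were divided among its libraries, so the SDs and p-values below may measure technical spread only. In whole embryos, fewer cells that make a miRNA and less of it per cell cannot be told apart.

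miRNAs are short noncoding RNAs that are cut from hairpin precursors and loaded into the RNA-induced silencing complex, where they guide the complex to complementary sites, mostly in the 3′ UTRs of mRNAs, and lower the output of these mRNAs. In fish embryos they are known for clearing maternal mRNAs and for tuning the differentiation of muscle, nervous system, and other tissues. The miRNAs are named here by the numbers that the authors gave them (prefix astmex-). These numbers are not known to match those of other species, and no role is therefore given for any single miRNA. Their sequences and genomic positions were not analysed here.

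Summed over the 683 miRNAs, a library held 7683993 to 8275406 counts in Molino, 10035615 to 15279059 in Pachón, 5539157 to 8537696 in surface fish, and 7565642 to 14673376 in Tinaja. Levels are given as CPM (counts scaled to a common library total) with library sizes adjusted by TMM factors, and a mean is followed by its SD over the 3 libraries of a morph. A level of 3 counts in a library, taken as the lowest that can be told from absence, stood for 0.378 to 0.392 CPM in Molino and 0.201 to 0.291 CPM in Pachón. These limits cover counting error only, since the reads carry no molecular identifiers. Replicate libraries mostly ran close together: over 515 miRNAs averaging at least 10 counts in the 6 libraries, the median coefficient of variation was 11.8% in Molino and 10.8% in Pachón. Some abundant miRNAs spread more, such as astmex-miR-47 with 404, 925, and 808 CPM in Molino and 1106, 568, and 542 CPM in Pachón. A single edgeR model of the 12 libraries gave the quasi-likelihood tests. A miRNA was called with a Benjamini−Hochberg adjusted p under 0.05 and a fitted fold change of at least 2, and every adjusted p below comes from this test.

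Molino and Pachón differed in 270 of the 683 miRNAs (39.5%). Of these, 165 (24.2% of all miRNAs) were higher in Molino and 105 (15.4%) were higher in Pachón. With an adjusted p under 0.05 alone, 395 miRNAs (57.8%) differed, 222 of them higher in Molino and 173 higher in Pachón. Changes were thus found on both sides, with more calls on the Molino side, while the log2 difference (Molino minus Pachón) had a median of only 0.10 over all miRNAs. The median size of a called difference was 2.497 on the log2 scale from the fit. It was 2.24 when miRNAs with at most 3 counts in every library of the lower morph were set to their lower limit or their ratio of pooled counts. The CPM ranges of the 2 morphs did not overlap for 437 miRNAs (64%), and 265 of the 270 called miRNAs were among these.

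**Figure D1:**
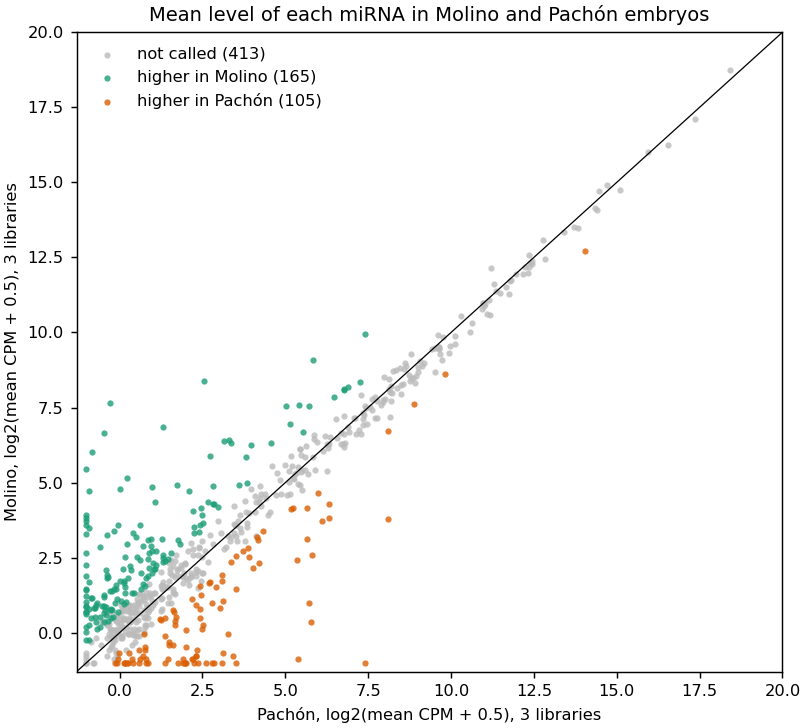
Mean level of each of the 683 miRNAs in Pachón (x axis) and Molino (y axis), both as log2(mean CPM + 0.5) over 3 libraries, with the line of equal levels. The 165 miRNAs called higher in Molino lie above the line and the 105 called higher in Pachón below it, most of both at low and middle levels, and the points on the left and lower edges are miRNAs without a count in one morph.

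Differences past both thresholds lay mostly in miRNAs of low and middle abundance. Among the 134 miRNAs averaging at least 1000 counts over the 6 libraries, 15 (11.2%) were called. The share was 39.7% of the 126 averaging 100 to under 1000 counts, 53.3% of the 255 with 10 to under 100 counts, and 41.1% of the 168 with under 10 counts. With an adjusted p under 0.05 alone, 63.4% of the most abundant class passed, against 67.5%, 61.2%, and 41.1% of the classes below it. Abundant miRNAs therefore passed the p threshold about as often as those of middle abundance, and the fold-change rule set them apart. The median size of the log2 difference was 0.26 in the most abundant class and 0.60, 1.12, and 1.35 in the others, and more counts also narrow the error of a small difference. These sizes are those of the fit, without the lower limits used above, and counting error adds to them at low counts.

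**Figure D2:**
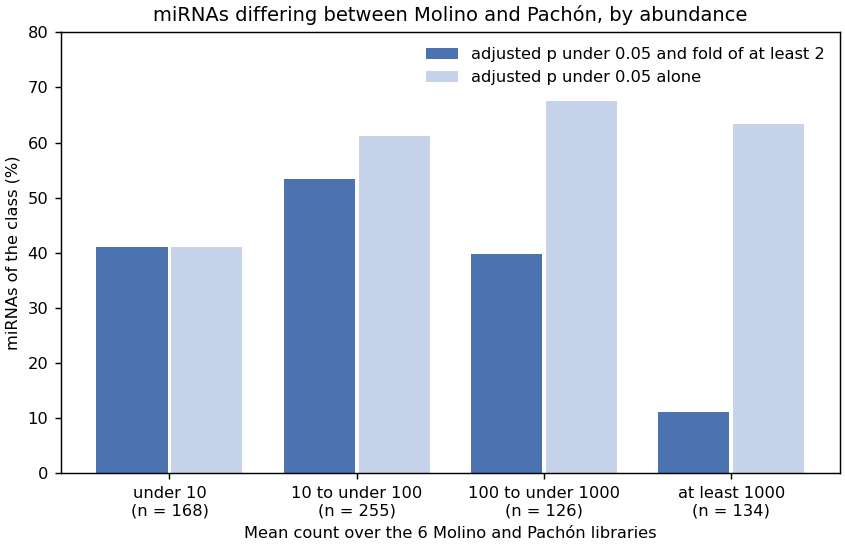
Share of miRNAs (%) that differed between Molino and Pachón in 4 classes of mean count over the 6 libraries, with both thresholds (dark bars) and with the adjusted p alone (light bars). The dark bars fall to 11.2% in the most abundant class, in which the light bar stands at 63.4%.

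The summed share of the most abundant miRNAs was close in the 2 morphs, which does not show that its make-up was the same. The 10 most abundant miRNAs held 83.6% ± 0.758 (SD, n = 3) of the counts in Molino and 81.5% ± 0.642 (SD, n = 3) in Pachón. astmex-miR-1, the most abundant of all, stood at 439684, 415355, and 465221 CPM in the Molino libraries and at 345229, 355584, and 341731 CPM in the Pachón libraries. The Molino libraries were all above the Pachón ones, but the log2 difference of 0.34 (SE 0.07, adjusted p = 0.000557) was short of the fold-change rule. astmex-miR-6 lay on the other side, at 26765 to 28636 CPM in Molino and 33541 to 37914 CPM in Pachón, with a log2 difference of -0.36 (SE 0.06, adjusted p = 0.000114), which was also under 2-fold. The remaining members of the first 5, astmex-miR-2, astmex-miR-3, and astmex-miR-4, had log2 differences of -0.26 (adjusted p = 0.216), -0.32 (adjusted p = 0.112), and 0.07 (adjusted p = 0.642), none past the threshold. The sign of the last one turned to -0.01 with RLE factors and with DESeq2. All 165 miRNAs called higher in Molino together made up 0.584% ± 0.0432 (SD, n = 3) of a Molino library and 0.128% ± 0.00601 (SD, n = 3) of a Pachón library. The 105 called higher in Pachón made up 1.998% ± 0.146 (SD, n = 3) in Pachón and 0.751% ± 0.0771 (SD, n = 3) in Molino. These sums describe miRNAs chosen for their difference and are given without a test.

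Among miRNAs with at least 10 counts in each of the 6 libraries, for which the counts fix the size of the change, 99 of 373 were called (26.5%), 66 higher in Molino and 33 higher in Pachón. The requirement leaves out every miRNA that is near 0 in one morph. Of the 66, 25 differed by at least 4-fold and 10 by at least 8-fold, and of the 33, 8 and 3 did. The median size of the log2 difference was 1.68 for those higher in Molino and 1.35 for those higher in Pachón. The 6 with the smallest adjusted p in each direction are described first, each with the morph that departs from the surface level by the same test and thresholds (Molino against surface fish called 34.8% and Pachón against surface fish 29.7% of all miRNAs). The contrast of the pair and the contrasts with surface fish share libraries, so the departures are a description and no further evidence of the difference.

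astmex-miR-203 had the smallest adjusted p of all. It stood at 315, 348, and 339 CPM in Molino and at 5.96, 4.75, and 5.24 CPM in Pachón, a log2 difference of 5.98 (SE 0.11, adjusted p = 3.1e-16). Surface fish, at 5.64 ± 0.717 CPM, and Tinaja, at 5.93 ± 0.432 CPM, were close to Pachón. Molino departed alone, with a log2 change against surface fish of 5.90 beside -0.08 (adjusted p = 0.73) in Pachón. astmex-miR-205 showed the same arrangement, at 558, 599, and 476 CPM in Molino, 60.8, 51.7, and 58.1 CPM in Pachón, and 59.2 ± 4.71 CPM in surface fish. Its log2 difference was 3.26 (SE 0.11, adjusted p = 1.87e-13), and it was lower still in Tinaja, at 9.69 ± 0.902 CPM. astmex-miR-138 was at 26.0, 31.6, and 28.4 CPM in Molino and at 1.45, 1.74, and 1.26 CPM in Pachón, a log2 difference of 4.24 (SE 0.18, adjusted p = 6.82e-12). Surface fish had 2.49 ± 0.708 CPM, with the Pachón change of -0.76 (adjusted p = 0.019) short of 2-fold, so that of the pair Molino again departed alone. Tinaja, with 1, 2, and 1 counts, was below surface fish (log2 change -4.32, adjusted p = 3.1e-07), under the limit of 3 counts.

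For the other leading miRNAs on the Molino side, the Pachón level lay below that of surface fish. astmex-miR-225 was at 83.0, 73.2, and 93.5 CPM in Molino and at 8.26, 8.30, and 8.34 CPM in Pachón, a log2 difference of 3.32 (SE 0.12, adjusted p = 8.19e-13). Surface fish had 54.3 ± 4.59 CPM. Pachón departed alone, with a log2 change of -2.71, while that of Molino, 0.62 (adjusted p = 0.00014), was under 2-fold. astmex-miR-251 moved to opposite sides of the surface level of 33.3 ± 2.23 CPM. It was at 111, 122, and 111 CPM in Molino and at 1.62, 1.94, and 2.43 CPM in Pachón, a log2 difference of 5.85 (SE 0.13, adjusted p = 1.38e-15). astmex-miR-224 was likewise split around surface fish, at 78.2, 89.8, and 86.3 CPM in Molino, 11.7, 9.43, and 7.08 CPM in Pachón, and 36.6 ± 1.98 CPM in surface fish. Its log2 difference between the cave morphs was 3.17 (SE 0.14, adjusted p = 1.27e-11). In Tinaja astmex-miR-251 was at 1.60 ± 0.177 CPM and astmex-miR-224 at 0.197 ± 0.115 CPM, on the Pachón side of surface fish in both cases. The first was close to Pachón (adjusted p = 0.38). The second, with 4, 2, and 1 counts near the limit of 3, was also below Pachón (log2 difference -5.45, adjusted p = 2.9e-10).

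On the Pachón side, astmex-miR-104 had the smallest adjusted p among these 6. It was at 259, 286, and 274 CPM in Pachón and at 13.4, 11.8, and 15.1 CPM in Molino, a log2 difference of -4.35 (SE 0.11, adjusted p = 4.73e-15). Surface fish at 17.6 ± 1.11 CPM and Tinaja at 21.1 ± 2.01 CPM were near Molino, and Pachón departed alone, with a log2 change of 3.95 beside -0.39 (adjusted p = 0.0076) in Molino. astmex-miR-228 and astmex-miR-229 followed a common pattern, and whether they are separate measurements was not tested. The first was at 76.2, 78.8, and 84.3 CPM in Pachón and at 14.0, 13.1, and 13.5 CPM in Molino, a log2 difference of -2.56 (SE 0.09, adjusted p = 8.19e-13). The second was at 77.0, 77.9, and 83.9 CPM in Pachón and at 18.2, 19.2, and 19.7 CPM in Molino, a log2 difference of -2.06 (SE 0.09, adjusted p = 6.82e-12). For both miRNAs the surface level, 16.2 ± 1.19 and 17.95 ± 1.04 CPM, was within 2-fold of Molino, so that Pachón departed alone, and Tinaja lay between the 2 morphs at 49.1 ± 2.23 and 50.1 ± 2.61 CPM.

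The other 3 leading miRNAs on the Pachón side were those in which Molino fell below surface fish. astmex-miR-244 was at 58.1, 50.2, and 56.5 CPM in Pachón, at 4.41, 6.27, and 5.76 CPM in Molino, and at 44.0 ± 3.56 CPM in surface fish. Its log2 difference was -3.32 (SE 0.13, adjusted p = 2.88e-12). Molino departed alone, with the Pachón change of 0.32 (adjusted p = 0.021) under 2-fold. astmex-miR-75, a miRNA of higher abundance, was at 267, 284, and 276 CPM in Pachón and at 107, 105, and 100.1 CPM in Molino, a log2 difference of -1.41 (SE 0.07, adjusted p = 2.11e-11). Surface fish had 214 ± 3.43 CPM, and only the Molino change of -1.04 against it reached 2-fold. In astmex-miR-226 both morphs fell below the surface level of 200.9 ± 9.32 CPM, and Molino fell further. It was at 67.5, 67.6, and 68.7 CPM in Pachón, at 13.0, 10.1, and 14.9 CPM in Molino, and at 3.02 ± 0.290 CPM in Tinaja, with a log2 difference of -2.42 (SE 0.11, adjusted p = 1.74e-11) between Molino and Pachón. In none of these 12 miRNAs, chosen by their adjusted p, did the Molino and Pachón libraries overlap. The same held for 265 of the 270 called miRNAs and for 64% of all miRNAs.

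**Figure D3:**
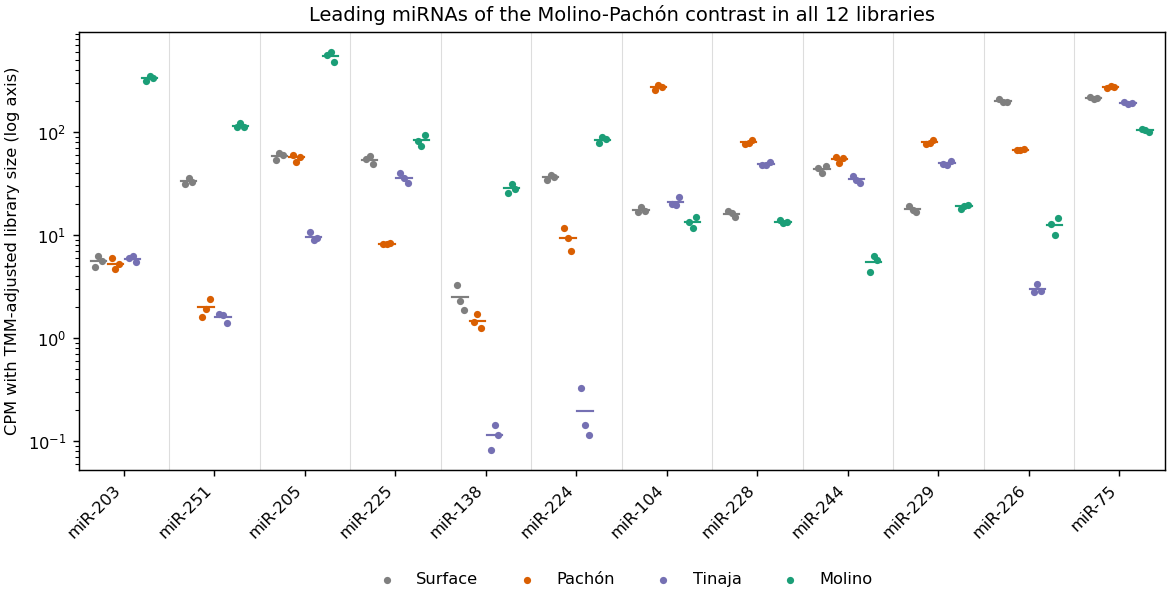
CPM on a log axis of the 12 leading miRNAs in every library of the 4 morphs (points, with a bar at the mean of 3 libraries), the 6 higher in Molino on the left and the 6 higher in Pachón on the right. For miR-203 the 3 Molino points lie between 315 and 348 CPM and all other points between 4.75 and 6.34 CPM, and for miR-104 the 3 Pachón points lie between 259 and 286 CPM and all others between 11.8 and 23.4 CPM.

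Some of the called miRNAs were at or near 0 in one of the 2 morphs. Of those higher in Molino, 39 had at most 3 counts in every Pachón library, and 21 of them had no Pachón count at all. Of those higher in Pachón, 48 had at most 3 counts in every Molino library, and 25 had no Molino count. Over all miRNAs, called or not, 49 had at most 3 counts in every Pachón library and 67 in every Molino library, and 27 and 30 had no count there. More miRNAs were thus near 0 in Molino, in totals made up mostly of the called miRNAs themselves. The Pachón libraries were also the deeper ones, whose part in this was not tested. Where one morph had no count, the fold difference is a lower limit, computed against 3 counts in each library of that morph. These limits ran from 1.37-fold to 176-fold on the Molino side, and 9 of the 21 were at least 10-fold. On the Pachón side they ran from 1.06-fold to 438-fold, and 8 of the 25 were at least 10-fold. For the smallest of them the counts show little more than that the miRNA was seen in one morph.

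Among those higher in Molino, astmex-miR-276 was the most abundant, with 527, 465, and 507 counts in Molino and 0, 0, and 2 in Pachón (adjusted p = 6.82e-12). The ratio of pooled rates was 1186 with a 95% counting interval of 328 to 9801. Both Pachón counts came from replicate 3, and without it the difference is a lower limit of 281-fold. Surface fish had no count of it, so that Molino departed alone. astmex-miR-273 was arranged the other way round. It had 365, 370, and 287 counts in Molino and 264, 168, and 197 in surface fish but none in Pachón or Tinaja, which makes it at least 176-fold higher in Molino than in Pachón (adjusted p = 4.35e-11), with Pachón the morph that departed. The log2 change of Molino against surface fish, 0.53 (adjusted p = 0.0065), was under 2-fold. astmex-miR-314 had 180, 231, and 192 counts in Molino, 1 count in the 3 Pachón libraries together, and none in surface fish or Tinaja, a ratio of pooled rates of 954 with a 95% counting interval of 171 to 37746 (adjusted p = 6.64e-10). Without Pachón replicate 1, which held that count, the difference is a lower limit of 105-fold. astmex-miR-398 had 127, 104, and 109 counts in Molino, none in Pachón, and 6, 2, and 1 in surface fish, and was at least 58.3-fold higher in Molino (adjusted p = 3.79e-10). Both morphs were called against surface fish for this miRNA, but the surface counts are too low to show how far Pachón lay under them.

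On the Pachón side, astmex-miR-215 stood out in abundance. It had 1982, 2400, and 1815 counts in Pachón and none in Molino, which makes it at least 438-fold higher in Pachón (adjusted p = 1.38e-15). Surface fish had 70, 48, and 45 counts, and the 2 morphs thus departed in opposite directions, with Tinaja at 106.5 ± 6.12 CPM close to Pachón at 168.5 ± 7.78 CPM. astmex-miR-261 had 511, 602, and 414 counts in Pachón and 0, 1, and 0 in Molino, a ratio of pooled rates of 965 with a 95% counting interval of 173 to 38144 (adjusted p = 5.06e-14). Without Molino replicate 2, which held that count, the difference is a lower limit of 108-fold. astmex-miR-301 had 123, 181, and 108 counts in Pachón and none in Molino, and was at least 28.6-fold higher in Pachón (adjusted p = 4.52e-09). For both of them surface fish had counts in every library, 145 to 196 of astmex-miR-261 and 53 to 82 of astmex-miR-301, and Molino departed alone. The log2 change of Pachón against surface fish was 0.81 (adjusted p = 1.95e-05) for astmex-miR-261, a rise under 2-fold. For astmex-miR-301 it was 0.10 (adjusted p = 0.72). astmex-miR-359 was present in Pachón, with 129, 148, and 98 counts, and nearly absent in Molino, with 1, 0, and 1 counts, and in surface fish, with 1, 0, and 0. Its ratio of pooled rates was 119 with a 95% counting interval of 32.6 to 982 (adjusted p = 2.04e-09), and of the pair Pachón departed alone. Tinaja, with 34, 30, and 35 counts, was also above surface fish (log2 change 5.59, adjusted p = 2.0e-06).

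The other morphs shared these absences unevenly. Of the 21 called miRNAs without a Pachón count, 14 had a count in every surface library and 4 had none in surface fish, and 9 had a count in every Tinaja library and 11 had none in Tinaja. Of the 25 called miRNAs without a Molino count, the numbers for surface fish were again 14 and 4, and those for Tinaja were 21 and 2. Only 2 of the 21 and 1 of the 25 were without a count in both of the other morphs.

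**Figure D4:**
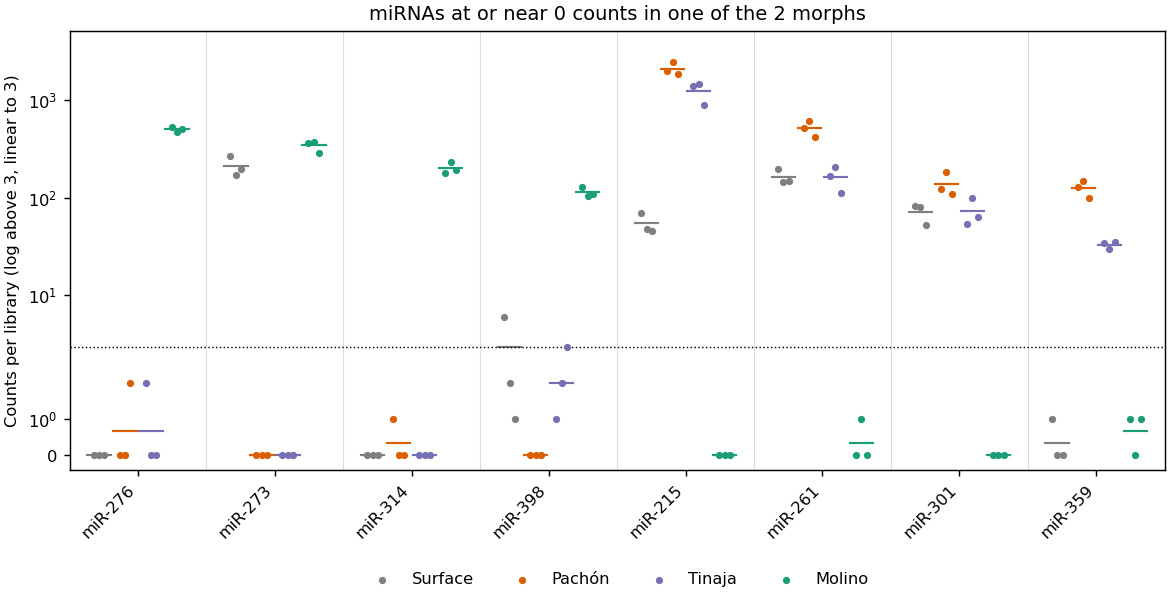
Counts in every library of the 4 morphs (points, with a bar at the mean of 3 libraries) for 8 miRNAs at or near 0 in Pachón (left 4) or Molino (right 4), on an axis that is linear up to 3 counts, the dotted line, and logarithmic above. miR-215 has 1815 to 2400 counts in Pachón and none in Molino, and miR-273 has 287 to 370 counts in Molino and none in Pachón or Tinaja.

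In the most abundant class 15 miRNAs were called, each with a fold change of at least 2 by the rule. Of these 15 miRNAs, 9 were higher in Molino and 6 higher in Pachón. The largest differences belonged to astmex-miR-203, astmex-miR-205, astmex-miR-104, and astmex-miR-215, given above. astmex-miR-45 was at 1054, 950.2, and 944 CPM in Molino and at 165, 173, and 171 CPM in Pachón, a log2 difference of 2.53 (SE 0.26, adjusted p = 4.7e-07). Its level in surface fish spread widely, at 213, 448, and 629 CPM, all of it between the 2 cave morphs, and both were called against it in opposite directions. astmex-miR-105 was at 193, 174, and 190.5 CPM in Molino and at 50.7, 54.1, and 51.5 CPM in Pachón, a log2 difference of 1.84 (SE 0.09, adjusted p = 3.45e-11). Here Molino departed alone from the surface level of 36.7 ± 2.11 CPM, while the Pachón change of 0.51 (adjusted p = 0.00027) was under 2-fold. astmex-miR-13, the most abundant of the 15, was at 7099, 6726, and 6356 CPM in Molino and at 15502, 18216, and 16741 CPM in Pachón, a log2 difference of -1.32 (SE 0.07, adjusted p = 5.52e-11). Its surface level of 13177 to 13466 CPM lay between them, nearer Pachón, with log2 changes of -0.99 in Molino (adjusted p = 3.6e-09) and 0.33 in Pachón (adjusted p = 0.00055), neither reaching 2-fold.

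Sorting all 270 called miRNAs by departure from surface fish showed every possible arrangement. Molino alone departed in 100 (37%), Pachón alone in 72 (26.7%), both in opposite directions in 34 (12.6%), both in the same direction in 23 (8.52%), and neither in 41 (15.2%). Of the 100 in which Molino alone departed, Molino was above surface fish in 66 and below it in 34. Of the 72 in which Pachón alone departed, Pachón was above surface fish in 39 and below it in 33. With one library left out at a time, Molino alone departed in 89 to 100 miRNAs and Pachón alone in 69 to 74. Over all 683 miRNAs, Molino was called above surface fish in 161 and below it in 77, and Pachón above it in 109 and below it in 94, so these directions are close to those of all calls against surface fish. The fold-change rule matters for the last class and also for those in which a morph departed alone. Of the leading miRNAs with a morph departing alone, some had the other morph under an adjusted p of 0.05, opposite in direction. These were astmex-miR-138, astmex-miR-225, astmex-miR-104, astmex-miR-228, astmex-miR-244, and astmex-miR-75. The others, astmex-miR-203, astmex-miR-205, and astmex-miR-229, did not. When the departure was called with an adjusted p under 0.05 alone, the miRNAs in which neither morph departed fell from 41 to 19, and those with opposite departures rose from 34 to 64.

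**Figure D5:**
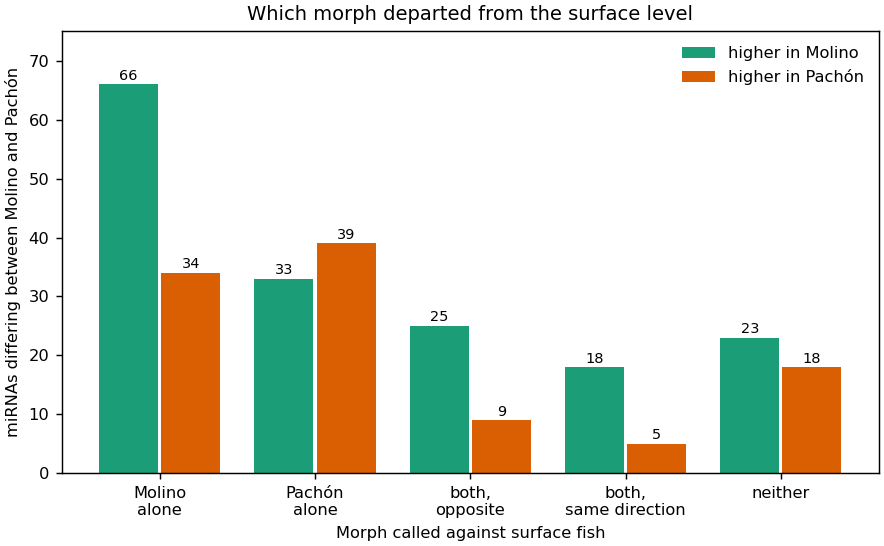
Number of the 270 miRNAs differing between Molino and Pachón, by which of the 2 morphs was called against surface fish, for those higher in Molino (green) and those higher in Pachón (orange). Molino alone departed in 66 of the 165 higher in Molino and in 34 of the 105 higher in Pachón, and Pachón alone in 33 and 39.

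Opposite departures were found in 25 miRNAs higher in Molino and in 9 higher in Pachón. astmex-miR-239 had 1691, 1598, and 1395 counts in Molino, 2, 6, and 4 in Pachón, and 20, 16, and 20 in surface fish, a fitted log2 difference between the cave morphs of 9.22 (SE 0.21, adjusted p = 1.38e-15). With so few Pachón counts its size is loosely fixed: the ratio of pooled rates was 618 with a 95% counting interval of 353 to 1196. astmex-miR-412 had 83, 93, and 92 counts in Molino, 32, 31, and 16 in surface fish, and none in Pachón or Tinaja, and was at least 46.1-fold higher in Molino (adjusted p = 6.34e-09). astmex-miR-429 had 60, 79, and 79 counts in Molino, 5, 1, and 1 in surface fish, and none in Pachón, and was at least 37.5-fold higher in Molino (adjusted p = 1.04e-08). As for astmex-miR-398, the test called Pachón below surface fish (adjusted p = 0.0093), but on surface counts mostly under the limit of 3. The place of both miRNAs in this class is therefore poorly fixed. Of this class on the Pachón side, astmex-miR-215 has been given above, and the other 3 named miRNAs had far fewer counts. astmex-miR-486, astmex-miR-484, and astmex-miR-433 had no Molino count and 29 to 54 counts in each Pachón library, which makes them at least 10.9-fold, 9.10-fold, and 8.95-fold higher in Pachón (adjusted p = 2.69e-06, 9.35e-07, and 2.57e-07). Surface fish had 1 to 12 counts of these 3 in a library, so how far Molino lay below surface fish is poorly fixed.

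Departures in the same direction came with a difference in degree. Both cave morphs were above surface fish in 12 miRNAs higher in Molino and in 3 higher in Pachón, and both were below it in 6 and 2. astmex-miR-212 was at 195, 186, and 187 CPM in Molino, at 40.0, 41.1, and 44.8 CPM in Pachón, and at 11.6 ± 1.99 CPM in surface fish, a log2 difference of 2.17 (SE 0.10, adjusted p = 2.17e-11) between the cave morphs. astmex-miR-286 was at 32.3, 27.4, and 28.6 CPM in Molino, at 3.06, 2.88, and 2.62 CPM in Pachón, and at 0.598 ± 0.298 CPM in surface fish, a log2 difference of 3.36 (SE 0.16, adjusted p = 3.35e-11). In both of them Molino lay further from surface fish. The reverse held for astmex-miR-141, at 40.3, 42.8, and 38.5 CPM in Pachón, 3.41, 5.36, and 5.89 CPM in Molino, and 0.277 ± 0.0937 CPM in surface fish, with a log2 difference of -3.05 (SE 0.16, adjusted p = 8.93e-11).

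In all 41 miRNAs in which neither morph departed, the surface mean lay between the 2 morphs, and in 30 of them it was under 2-fold from each, as for astmex-miR-13 above. The class largely fixes this position, since a surface mean outside the pair would lie about 2-fold or more from the farther morph. astmex-miR-220 was at 98.8, 111, and 98.5 CPM in Molino, 46.4, 47.0, and 44.1 CPM in Pachón, and 64.3 ± 2.24 CPM in surface fish, a log2 difference of 1.16 (SE 0.08, adjusted p = 2.09e-09). astmex-miR-207 was at 281, 276, and 267 CPM in Molino, 109, 106, and 110.1 CPM in Pachón, and 165 ± 9.65 CPM in surface fish, a log2 difference of 1.34 (SE 0.09, adjusted p = 2.47e-09). astmex-miR-49 was ordered the other way, at 426, 382, and 367 CPM in Molino, 866, 959.8, and 897 CPM in Pachón, and 547 ± 28.9 CPM in surface fish, a log2 difference of -1.21 (SE 0.08, adjusted p = 2.09e-09). Against surface fish, the log2 changes of Molino and Pachón were 0.68 (adjusted p = 1.9e-06) and -0.49 (adjusted p = 8.4e-05) for astmex-miR-220. They were 0.73 (adjusted p = 4.0e-06) and -0.61 (adjusted p = 3.7e-05) for astmex-miR-207. For astmex-miR-49 they were -0.48 (adjusted p = 9.8e-05) and 0.73 (adjusted p = 1.4e-06). These 3, chosen for a small adjusted p, are thus in this class by the fold-change rule only.

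Without reference to any threshold against surface fish, the surface mean lay between the 2 cave morphs for 184 of the 270 called miRNAs (68.1%), below both for 60 (22.2%), and above both for 26 (9.63%). On the scale of log2(mean CPM + 0.5), it was nearer Pachón for 150 and nearer Molino for 120. On this scale, where the added 0.5 draws low levels together, it was more often nearer the lower morph in either direction. It was nearer Pachón for 102 of the 165 miRNAs higher in Molino, and nearer Molino for 57 of the 105 higher in Pachón. The margin was narrow for those higher in Pachón, with 48 nearer Pachón. The Tinaja mean was nearer Pachón for 197 and nearer Molino for 73. For miRNAs higher in Molino it was nearer Pachón in 135 of 165, and for those higher in Pachón in 62 of 105. These counts describe the means and carry no test. They cover only miRNAs chosen for a difference between the pair, and a wide gap leaves more room for another morph to fall between. Over all miRNAs, by the same test and thresholds, Tinaja was called against Molino in 42.8% and against Pachón in 24.9%. When single libraries were left out, there were 185 to 198 miRNAs with Tinaja nearer Pachón and 67 to 77 with Tinaja nearer Molino.

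The cave-specific miRNAs, those called in one direction against surface fish in all 3 cave morphs, were counted beside the 39.5% of all miRNAs that differed between Molino and Pachón (24.2% higher in Molino and 15.4% higher in Pachón). Of the 26 upregulated ones, 6 were higher in Molino, among them astmex-miR-212 and astmex-miR-286, and 3 were higher in Pachón, among them astmex-miR-141. Of the 17 downregulated ones, 6 were higher in Molino and 1, astmex-miR-226, was higher in Pachón. These numbers are near the shares over all miRNAs or rest on few members. The lists were chosen on the same libraries and are not independent of the comparison. The median log2 difference (Molino minus Pachón) was 0.36 for the upregulated and 0.98 for the downregulated ones, against 0.10 over all miRNAs.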

How the data were processed

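The authors trimmed the adapters with cutadapt 2.5, discarded reads without an adapter or under 18 bases, filtered out reads of other structural and transfer RNAs, ran miRDeep2 on the pooled reads to call miRNAs, and then quantified each library separately on the precursors. They deposited whole-number counts per mature miRNA and library, without normalization and without pooling of replicates. All morphs were counted on precursors called from a single reference genome of the species, and its effect on counts near 0 was not tested. 0 columns of values were left unused.

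From these counts, TMM factors, CPM, and tests were computed with edgeR 4.0.16 in R 4.3.3 (estimateDisp, glmQLFit, glmQLFTest) in one fit of 12 libraries with a mean per morph and no low-count filter. The methods of the study name edgeR, the Benjamini−Hochberg adjustment, and both thresholds. The SE of a log2 difference was obtained from the F statistic (size over the root of F). Counting intervals are exact Clopper-Pearson intervals on pooled counts. For one miRNA and 3 libraries per morph, the smallest two-sided p of an exact permutation test is 0.1, so edgeR's adjusted p-values are given.

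The miRNAs named were, among those called, the 6 in each direction with the smallest adjusted p and at least 10 counts in each of the 6 libraries, the 4 in each direction with the highest level among those with at most 3 counts in every library of the other morph, the 4 in each direction with the largest fold change among those averaging at least 1000 counts and among those departing oppositely from surface fish, the 2 in each direction with the smallest adjusted p among those departing in the same direction and among those departing in neither morph, both averaging at least 10 counts, and the 5 most abundant miRNAs. Named outside this rule were astmex-miR-47, astmex-miR-204, and astmex-miR-208. The comparison, the lists, and the rule were chosen with earlier results of these data known. Alternatives were other scalings, DESeq2 1.42.0, other tests, filters, and fold-change rules, the 6 libraries alone, a replicate block, thinned counts, and leaving out each library. The fit was also run on simulated counts with 4-fold changes in Molino, and it recovered 185 of 200 with 0 false calls. These counts used the dispersions of the same libraries, so the run cannot show whether the calls would hold in separate collections. Changes near 2-fold were not simulated.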

Additional observations from a re-analysis of the deposited data

Results flagged for a closer look

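Among the named miRNAs, 11 were called against surface fish in opposite directions in Molino and Pachón (n = 3 libraries per morph). All 11 were chosen among miRNAs called in the direct contrast of the morphs (edgeR's quasi-likelihood test, both thresholds). That they pass it follows from the choice and is no further evidence. Higher in Pachón were astmex-miR-215 by at least 438-fold, astmex-miR-486 by at least 10.9-fold, astmex-miR-484 by at least 9.10-fold, and astmex-miR-433 by at least 8.95-fold, each without a count in Molino. Higher in Molino without a count in Pachón were astmex-miR-398 by at least 58.3-fold, astmex-miR-412 by at least 46.1-fold, and astmex-miR-429 by at least 37.5-fold. Surface counts were only 6, 2, and 1 for astmex-miR-398 and 5, 1, and 1 for astmex-miR-429. The test called Pachón below surface fish for both (adjusted p = 0.0019 and 0.0093), but with counts this low its departure is poorly fixed. For astmex-miR-486, astmex-miR-484, and astmex-miR-433 they were 1 to 12 in a library, so how far Molino lay below surface fish is poorly fixed. Higher in Molino with counts in both morphs were astmex-miR-239 by 594-fold in the fit (95% counting interval of the pooled ratio 353 to 1196), astmex-miR-251 by 57.8-fold, astmex-miR-224 by 8.97-fold, and astmex-miR-45 by 5.78-fold. Groups of 3 libraries were not searched for single outlying libraries.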

How the results depend on the processing

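Of the alternatives, requiring at least 10 counts in each of the 6 libraries and fitting anew moved the numbers most, since it left 373 miRNAs to test and removes those near 0 in one morph. It gave 99 calls, 69 higher in Molino and 30 higher in Pachón, with Molino alone departing in 40, Pachón alone in 17, both oppositely in 5, and neither in 20, with surface fish nearer Pachón in 66 and nearer Molino in 33, and with Tinaja nearer Pachón in 71 and nearer Molino in 28. Without the fold-change rule, 173 were higher in Pachón. With the adjusted p alone for the departure, 64 departed oppositely and 19 in neither morph. Keeping only miRNAs with more than 3 counts in a library of both morphs, chosen after seeing the data, gave 59 higher in Pachón. Each of the other fits on the full set of libraries gave 200 (glmTreat with a 2-fold null) to 281 calls (likelihood ratio test), with 260 from DESeq2 and 244 after thinning all libraries to the shallowest. Asking for 0.5 CPM in any library removed no miRNA. Leaving out one library gave 255 to 273 calls, and 224 of the 270 were called in all 12 of these fits. The difference of astmex-miR-4 changed sign, to -0.013 with RLE factors and with DESeq2 and to -0.014 without Molino replicate 2 (-0.014 to 0.149 with one library left out), far from the threshold each time. All 35 called miRNAs named by the rule above kept their direction and their call under every alternative that tested them. Not among these 35 are astmex-miR-204 and astmex-miR-208, named below. Same-numbered Molino and Pachón libraries did not deviate together (r = -0.11, -0.02, and -0.05 across 515 miRNAs, and no library was most like its own number). With 3 libraries per morph, this cannot tell whether same-numbered libraries shared a collection or a batch. The fit with the replicate number as a block gave 263 calls. The depth limits the miRNAs near 0 counts: leaving out the only library with a count moved astmex-miR-276, astmex-miR-314, and astmex-miR-261 from ratios of 1186, 954, and 965 to lower limits of 281, 105, and 108, an alternative chosen after seeing the data, and leaving out either other library of the lower morph gave ratios of 707 and 809, 569 and 688, and 638 and 643.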

Other observations

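Some of the called miRNAs may not be separate measurements. Among the 201 called miRNAs averaging at least 10 counts, astmex-miR-204, astmex-miR-207, and astmex-miR-208 had nearly the same counts in all 12 libraries. The largest gap in log2(count + 1) in any library was 0.02 between astmex-miR-207 and astmex-miR-208, and 0.16 between astmex-miR-204 and each of the others. Their log2 differences between Molino and Pachón were 1.27, 1.34, and 1.33. No other called miRNAs came within 0.5 of each other in every library, the limit set after the values were seen, and with these 3 counted once the number of calls is 268. Outside Molino, astmex-miR-228 and astmex-miR-229 also had close counts, with 895, 1178, and 869 against 904, 1164, and 865 in Pachón. In Molino they had 111, 100, and 105 against 144, 147, and 154 counts, which put them past that limit. Mature sequences were not analysed here, so whether the 3, or these 2, share reads was not tested.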
